A study of Mus musculus with 5 samples.

Results

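MHC class II molecules were followed in liver RNA through 7 genes that encode the peptide-binding chains, the proteins that load them and their transcriptional switch, namely *H2-Aa*, *H2-Ab1*, *H2-Eb1*, *H2-DMa*, *H2-DMb1*, *Cd74* and *Ciita*. They were chosen by symbol, and each matched 1 row among the 23793 genes of the table. The livers came from 3 Lifr fl/fl;Alb-Cre mice (Lifrfl/fl;Crealb/alb in the labels) and 2 Lifr fl/fl mice (Lifrfl/fl in the labels), C57BL/6 animals of 12 weeks according to the labels, and are called Alb-Cre and control livers from here on. Both groups carry the floxed *Lifr* allele, in which exon 4 is flanked by LoxP sites. Alb-Cre is Cre recombinase driven by the albumin promoter, which removes that exon in hepatocytes, while other liver cells, including most of those that make class II molecules, do not use this promoter. No group had Cre without the floxed allele, so an effect of Cre and one of *Lifr* loss cannot be told apart. Levels are FPKM, the fragments mapped to a gene scaled by transcript length and library total, so levels of different genes may be set side by side.

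MHC class II molecules sit on the surface of dendritic cells, B cells and macrophages and show peptides from engulfed proteins to CD4 T cells. An alpha and a beta chain pair in the endoplasmic reticulum around the invariant chain, which is then cut by lysosomal proteases, and the DM protein exchanges its last fragment for a peptide. The genes are switched on together by the coactivator CIITA, which interferon-gamma induces and which docks on factors bound to the X and Y boxes of class II promoters. In healthy liver, Kupffer cells, dendritic cells, B cells and sinusoidal endothelial cells carry class II, and hepatocytes have little or none.

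Of the 7 genes, 5 lie on chromosome 17 of mm10, within 197 kb of the major histocompatibility complex from 34119693 to 34316674. *H2-DMa* spans 34119693 to 34139101, *H2-DMb1* spans 34153191 to 34160229 and *H2-Ab1* spans 34263227 to 34269418, all on the plus strand. *H2-Aa* spans 34282744 to 34287823 on the minus strand, and *H2-Eb1* spans 34305867 to 34316674 on the plus strand. *Cd74* and *Ciita* lie on other chromosomes. In the GENCODE annotation, exons of *H2-DMa* share 360 bases with exons of *Brd2* on the opposite strand, and exons of *Ciita* share 329 bases with *Dexi* on the opposite strand. Whether reads were assigned by strand is not given in the sources used here, so the levels of *H2-DMa* and *Ciita* are uncertain to that extent. *H2-DMb1* has a closely similar copy, *H2-DMb2*, and only uniquely mapped reads were kept, which makes the split between these genes uncertain as well.

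The RefSeq promoter table of this build holds 4 of the 7 genes. The 130 bases before the start site of a class II alpha chain gene, a class II beta chain gene and a DM beta chain gene are shown because class II genes share their control through boxes in this stretch. Capitals mark the Y box core (ATTGG), an X box pattern (AACTNNTGA, where N is any base) and the cyclic AMP response element (TGACGTCA), each on the strand shown.
H2-Aa, chr17:34287824-34287953, minus strand: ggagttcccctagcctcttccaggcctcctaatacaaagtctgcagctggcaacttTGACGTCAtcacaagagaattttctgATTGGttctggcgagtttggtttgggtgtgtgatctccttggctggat
H2-Eb1, chr17:34305737-34305866, plus strand: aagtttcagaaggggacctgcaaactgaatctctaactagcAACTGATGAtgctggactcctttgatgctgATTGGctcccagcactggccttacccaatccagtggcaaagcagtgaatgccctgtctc
H2-DMb1, chr17:34153061-34153190, plus strand: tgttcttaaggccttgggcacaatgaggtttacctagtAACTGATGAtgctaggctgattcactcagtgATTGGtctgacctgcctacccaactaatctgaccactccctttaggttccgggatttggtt
The Y box core begins 48, 59 and 61 bases before the start of *H2-Aa*, *H2-Eb1* and *H2-DMb1*. The X box pattern begins 89 bases before the start of *H2-Eb1* and 92 before that of *H2-DMb1*, and *H2-Aa* has a cyclic AMP response element that begins 74 bases before its start. *H2-Eb1* also has a Y box core on the other strand, CCAAT, which begins 35 bases before its start and is left in lower case. None of the marked motifs overlap. Searched on both strands over 250 bases before the start, the Y box core is found in 37.5% of 27025 genes with a promoter in the table, the X box pattern in 3.71% and the cyclic AMP response element in 1.77%. The patterns were spelled out after these promoters had been read, and a match is a run of letters and not a shown binding site. The first of 2 promoters of *H2-DMa* in the table holds none of the 3 patterns, and its other promoter holds the Y box core 198 bases before the start.

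The deposited values limit what can be followed from mouse to mouse. For 15586 of 15586 genes whose values are distinct, the columns of a group run in ascending text order, which chance would give for 8.33%. The columns thus do not stand for mice, and it cannot be said whether the low or high values of several genes come from the same liver. *Lifr*, the targeted gene, was at 32.8, 44.3 and 54.8 FPKM in Alb-Cre livers, against 132 and 151 FPKM in control livers (log2 fold change -1.71, adjusted p = 0.0045 from limma). In limma, its adjusted p was 0.062 when low genes were kept in, and 0.20 and 0.34 when the lower or the higher control value was left out, so the call is lost there. Markers of hepatocytes were high, at up to 6940 FPKM on average for *Apoa1*, but *Alb* and *Trf*, which encode albumin and transferrin, are listed at 0 in all 5 libraries. Depth is unknown, since the table holds no counts.

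None of the 7 class II pathway genes was past the threshold between Alb-Cre and control livers. Differences were tested on log2(FPKM + 0.1) with limma over 11687 genes whose mean reached 0.5 FPKM, adjusted by the Benjamini-Hochberg method. Of the 7 genes, 6 passed this filter, and in limma none of these had an adjusted or an unadjusted p under 0.05. With the lowest Alb-Cre value of each left out, *H2-Aa*, *Cd74* and *H2-Eb1* had log2 fold changes of 0.48, 0.42 and 0.40 in limma, with unadjusted p = 0.010, 0.019 and 0.035 and adjusted p = 0.27, 0.37 and 0.46. That value was picked for being lowest, so these describe how much rests on it. Of all genes tested, 0.565% were past the adjusted threshold, 0.359% higher and 0.205% lower in Alb-Cre livers, and 9.63% had an unadjusted p under 0.05, 6.08% higher and 3.56% lower. The groups overlapped for all 7 genes, while they were apart for 25.9% of all genes tested, 15.1% higher and 10.7% lower. The median log2 fold change of the 6 genes was 0.13, beside 0.03 over all genes tested, and 4 of the 6 lay above 0, beside 54.9% of all genes. In whole liver, fewer cells of a type and less RNA per cell cannot be told apart.

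*H2-Aa* encodes the alpha chain of I-A, the class II molecule that C57BL/6 mice make. *H2-Aa* was at 23.8, 44.3 and 55.3 FPKM in Alb-Cre livers, against 34.97 and 36.2 FPKM in control livers. Both control values lay inside the range of the Alb-Cre values. The mean of *H2-Aa* was 41.1 ± 16.0 FPKM in Alb-Cre livers (SD, n = 3) and 35.6 ± 0.856 FPKM in control livers (SD, n = 2). In limma its log2 fold change was 0.13 with a standard error of 0.28, at an adjusted p of 0.91. The 95% interval runs from -0.51 to 0.76 on the log2 scale, which corresponds to ratios of 0.703 to 1.69.

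*H2-Ab1* encodes the beta chain that pairs with it. Its values were 18.6, 35.2 and 39.7 FPKM in Alb-Cre livers, against 24.8 and 36.2 FPKM in control livers, so the controls again fell inside the other group. The mean of *H2-Ab1* was 31.2 ± 11.1 FPKM in Alb-Cre livers (SD, n = 3) and 30.5 ± 8.04 FPKM in control livers (SD, n = 2). On the log2 scale the difference was -0.02 (95% interval -0.67 to 0.63, adjusted p = 0.99 from limma), opposite in sign to the difference of the means.

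*H2-Eb1* encodes the beta chain of I-E. Mice of this strain background carry a deletion in the gene of the partner alpha chain and make no I-E protein. That gene, *H2-Ea-ps*, is listed at 0 in all 5 libraries. *Alb* and *Trf* are listed at 0 too, so a listed 0 does not show that a gene was silent. *H2-Eb1* mRNA was at 8.99, 19.1 and 23.0 FPKM in Alb-Cre livers, against 14.1 and 17.7 FPKM in control livers. The lowest and the highest value thus both came from Alb-Cre livers. The log2 fold change was 0.00 at 2 decimals (-0.0027, 95% interval -0.73 to 0.72, adjusted p = 0.999 from limma), and the interval covers ratios of 0.605 to 1.65.

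*Cd74* encodes the invariant chain, which fills the groove of new class II molecules and guides them to endosomes. The gene lies on chromosome 18 of mm10 from 60803849 to 60812652, on the plus strand, and an exon shares 12 bases with the microRNA gene *Mir5107* of the same strand. *Cd74* was at 66.1, 118 and 122 FPKM in Alb-Cre livers, against 79.3 and 100.1 FPKM in control livers. A pair of values lay above both controls and the remaining value below both. The mean was 102 ± 30.9 FPKM in Alb-Cre livers (SD, n = 3) and 89.7 ± 14.7 FPKM in control livers (SD, n = 2). The log2 fold change was 0.14 (standard error 0.24, 95% interval -0.40 to 0.68, adjusted p = 0.88 from limma).

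*H2-DMa* and *H2-DMb1* encode the chains of the DM protein, which catalyses peptide exchange in endosomes. *H2-DMa* was at 2.55, 2.85 and 3.62 FPKM in Alb-Cre livers, against 2.12 and 3.02 FPKM in control livers. *H2-DMb1* was at 2.43, 3.12 and 3.46 FPKM in Alb-Cre livers, against 2.41 and 2.71 FPKM in control livers. For each gene, the highest value was in an Alb-Cre liver and the lowest in a control liver, with overlap between. The log2 fold changes were 0.22 and 0.21 (95% intervals -0.22 to 0.67 and -0.18 to 0.60, adjusted p = 0.76 and 0.74 from limma).

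*Ciita*, the switch of the pathway, was the lowest of the genes. It lies on chromosome 16 of mm10 from 10480014 to 10531064, on the plus strand. *Ciita* was at 0.363, 0.464 and 0.517 FPKM in Alb-Cre livers, against 0.343 and 0.428 FPKM in control livers, and its mean of 0.423 FPKM over the 5 libraries is under the filter. In limma without a filter, over 17270 genes above 0 in at least 1 library, its log2 fold change was 0.17 (95% interval -0.34 to 0.68, adjusted p = 0.85). The pseudocount of 0.1 FPKM is not small beside these levels, and with 1 FPKM in its place the log2 fold change of *Ciita* was 0.06.

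**Figure D1:**
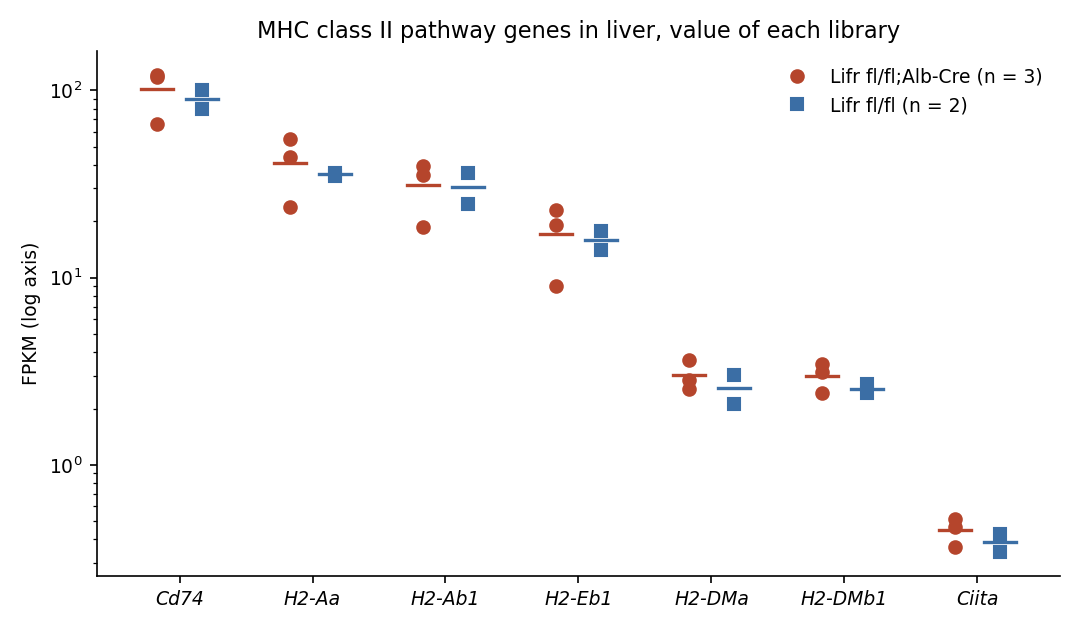
FPKM of the 7 class II pathway genes on a log axis, with circles for the 3 Alb-Cre livers, squares for the 2 control livers and lines for group means. The groups overlap for every gene, and *Cd74* is highest and *Ciita* lowest in both groups.

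The order of the 7 genes by level was the same in both groups. By group mean, *Cd74* stood first at 102 FPKM in Alb-Cre livers and 89.7 FPKM in control livers, followed by *H2-Aa*, *H2-Ab1*, *H2-Eb1*, *H2-DMa*, *H2-DMb1* and *Ciita*. Within each group the ranges of *H2-Aa* and *H2-Ab1* overlapped, and so did those of *H2-DMa* and *H2-DMb1*, so these neighbours did not differ beyond their spread. The ranges of *H2-Ab1* and *H2-Eb1* overlapped in Alb-Cre livers and were apart in control livers. All other neighbours were apart in both groups. Against all 17270 genes above 0, the mean level over the 5 libraries was at percentile 95.5 for *Cd74*, 90.1 for *H2-Aa*, 88.1 for *H2-Ab1*, 80.4 for *H2-Eb1*, 49.8 for *H2-DMa*, 49.7 for *H2-DMb1* and 31.0 for *Ciita*.

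Proportions between the genes were close in the 2 groups. The mean of *Cd74* was 2.47 times that of *H2-Aa* in Alb-Cre livers and 2.52 times in control livers. The alpha chain gene *H2-Aa* stood at 1.32 times the beta chain gene *H2-Ab1* in Alb-Cre livers and at 1.17 times in control livers. *H2-DMa* and *H2-DMb1*, whose products pair, stood at a ratio of 1.002 in Alb-Cre livers and 1.005 in control livers. These are ratios of group means and carry no error, because a ratio within each mouse cannot be formed.

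The 4 genes with the highest levels varied widely among Alb-Cre livers. The highest value was 2.56 times the lowest for *H2-Eb1*, 2.32 times for *H2-Aa*, 2.14 times for *H2-Ab1* and 1.84 times for *Cd74*. For each of them, 1 value lay well below the other two and below both controls. Over all genes tested and above 0 in these livers, the median of this ratio was 1.23, and 1.26% of genes had a ratio as large as that of *H2-Eb1*, 1.77% as large as that of *H2-Aa*, 2.41% as large as that of *H2-Ab1* and 4.70% as large as that of *Cd74*. In control livers the higher value was 1.26 times the lower for *H2-Eb1*, 1.03 times for *H2-Aa*, 1.46 times for *H2-Ab1* and 1.26 times for *Cd74*, where the median over all genes was 1.13. A ratio over 3 values is larger by construction than one over 2, so these were not compared between the groups. For *H2-DMa*, *H2-DMb1* and *Ciita* the ratio in Alb-Cre livers was 1.42, 1.43 and 1.42, a size reached by 18.7% to 19.0% of all genes.

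**Figure D2:**
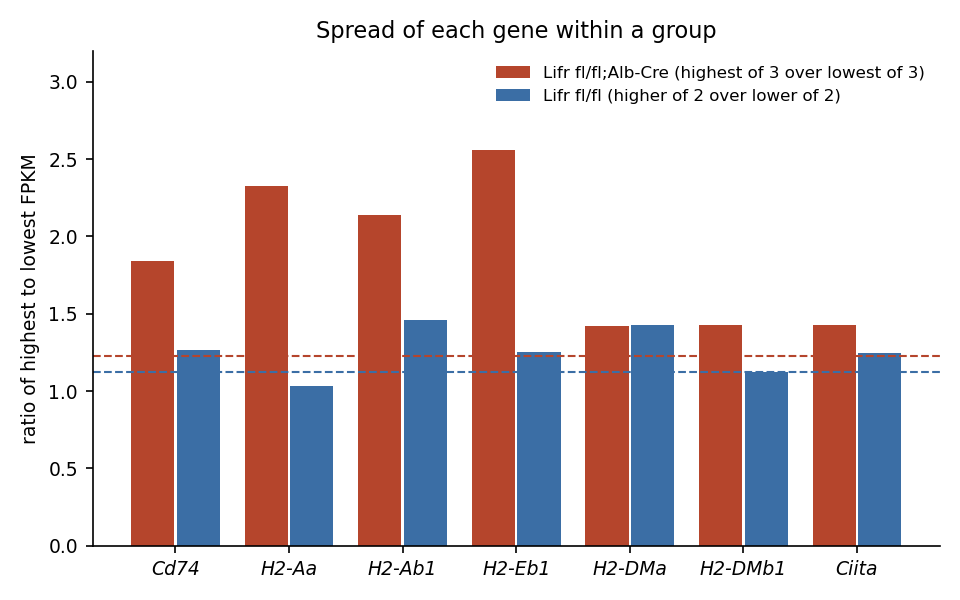
Ratio of the highest to the lowest FPKM of each class II pathway gene within the 3 Alb-Cre livers (left bars) and within the 2 control livers (right bars), with dashed lines at the median over all genes tested, 1.23 and 1.13. *H2-Eb1*, *H2-Aa* and *H2-Ab1* exceed 2 in Alb-Cre livers.

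The remaining class II genes were at low levels. *H2-DMb2*, *H2-Oa*, *H2-Ob* and *H2-Eb2* had means of 0.325, 0.219, 0.328 and 0.028 FPKM in Alb-Cre livers, against 0.471, 0.131, 0.413 and 0.051 FPKM in control livers. *H2-Oa* and *H2-Ob* encode the chains of DO, which restrains DM in B cells. None of the 5 genes of this group, *H2-Ea-ps* included, passed the filter, and none had an unadjusted p under 0.05 in limma without it. Without overlap of the groups, *H2-Oa* was higher and *H2-Eb2* lower in Alb-Cre livers, beside 15.1% and 10.7% of all genes tested. Between *H2-DMa* and *H2-Eb1* on chromosome 17 lie also *Psmb8*, *Psmb9*, *Tap1* and *Tap2*, which serve MHC class I by cutting and transporting peptides. *Psmb8* averaged 33.1 ± 6.31 FPKM in Alb-Cre livers (SD, n = 3) and 25.6 ± 2.69 FPKM in control livers (SD, n = 2), a log2 difference of 0.35 at an adjusted p of 0.55 in limma. All 4 of these neighbours lay above 0 (median log2 fold change 0.27), beside 54.9% of all genes tested, and none passed in limma, adjusted or not.

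The factors that bind class II promoters did not pass either. These are the RFX subunits *Rfx5*, *Rfxap* and *Rfxank* at the X box, the NF-Y subunits *Nfya*, *Nfyb* and *Nfyc* at the Y box, and *Creb1* at the cyclic AMP response element. *Rfx5*, whose loss abolishes class II expression in humans, averaged 2.74 ± 0.130 FPKM in Alb-Cre livers (SD, n = 3) and 2.99 ± 0.379 FPKM in control livers (SD, n = 2). Of the 7 factors, none was higher or lower in limma, adjusted or at an unadjusted p under 0.05. Of these, 2 lay above 0 (median -0.09), beside 54.9% of all genes tested. Without overlap of the groups, *Nfya* was higher in Alb-Cre livers and *Rfxank* and *Nfyc* were lower. Of all genes tested, 15.1% were higher and 10.7% lower in this way. *Rfxank* and *Nfyc* were apart only narrowly. Their highest Alb-Cre values were 2.319 and 12.04 FPKM, against 2.321 and 12.08 FPKM for the lower control value. The coactivators *Crebbp*, *Ep300*, *Kat2b* and *Smarca4*, which work with CIITA, did not pass in limma, adjusted or not, with log2 fold changes of 0.06, 0.25, 0.01 and 0.08. Among these coactivators, the groups of *Ep300* alone were apart, with higher values in Alb-Cre livers.

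Interferon-gamma induces *Ciita* through its receptor, the kinases JAK1 and JAK2 and, further down, IRF1. *Jak1* was at 31.3, 34.1 and 37.5 FPKM in Alb-Cre livers, against 29.9 and 31.3 FPKM in control livers, and the groups overlapped narrowly. Its log2 fold change was 0.16 (adjusted p = 0.72 from limma). *Irf1*, which encodes a factor that acts on a promoter of *Ciita*, averaged 15.3 ± 2.70 FPKM in Alb-Cre livers (SD, n = 3) and 17.1 ± 0.265 FPKM in control livers (SD, n = 2), at a log2 fold change of -0.17. Of 8 genes of this pathway that were tested, limma put none past the adjusted threshold. It put 1 at an unadjusted p under 0.05, beside 9.63% of all genes tested. Of the 8, 6 lay above 0 (median 0.06), beside 54.9% of all genes tested. For 2 of the 8 all Alb-Cre values exceeded both control values, beside 15.1% of all genes tested. *Ifng* itself was listed at 0, 0.030 and 0.041 FPKM in Alb-Cre livers and at 0 in both control livers.

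Lysosomal proteases cut the invariant chain and prepare peptides. Cathepsin S, encoded by *Ctss*, makes the last cuts of the invariant chain in dendritic cells and B cells. *Ctss* was at 40.4, 45.6 and 53.3 FPKM in Alb-Cre livers, against 28.0 and 29.5 FPKM in control livers, and the groups were apart. The log2 fold change of *Ctss* was 0.68 (standard error 0.14, 95% interval 0.37 to 0.99), with an unadjusted p of 6.67e-04 and an adjusted p of 0.082 from limma, short of the threshold. *Ctsl*, *Ctsb*, *Ctsd*, *Ctsh* and *Ctsz*, *Lgmn* and the thiol reductase gene *Ifi30*, which opens disulfide bonds of antigens, had log2 fold changes of 0.01 to 0.29 and unadjusted p-values above 0.05 in limma. All 8 genes lay above 0, with a median of 0.17, beside 54.9% of all genes tested. For 4 of the 8 all Alb-Cre values exceeded both control values, beside 15.1% of all genes tested.

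**Figure D3:**
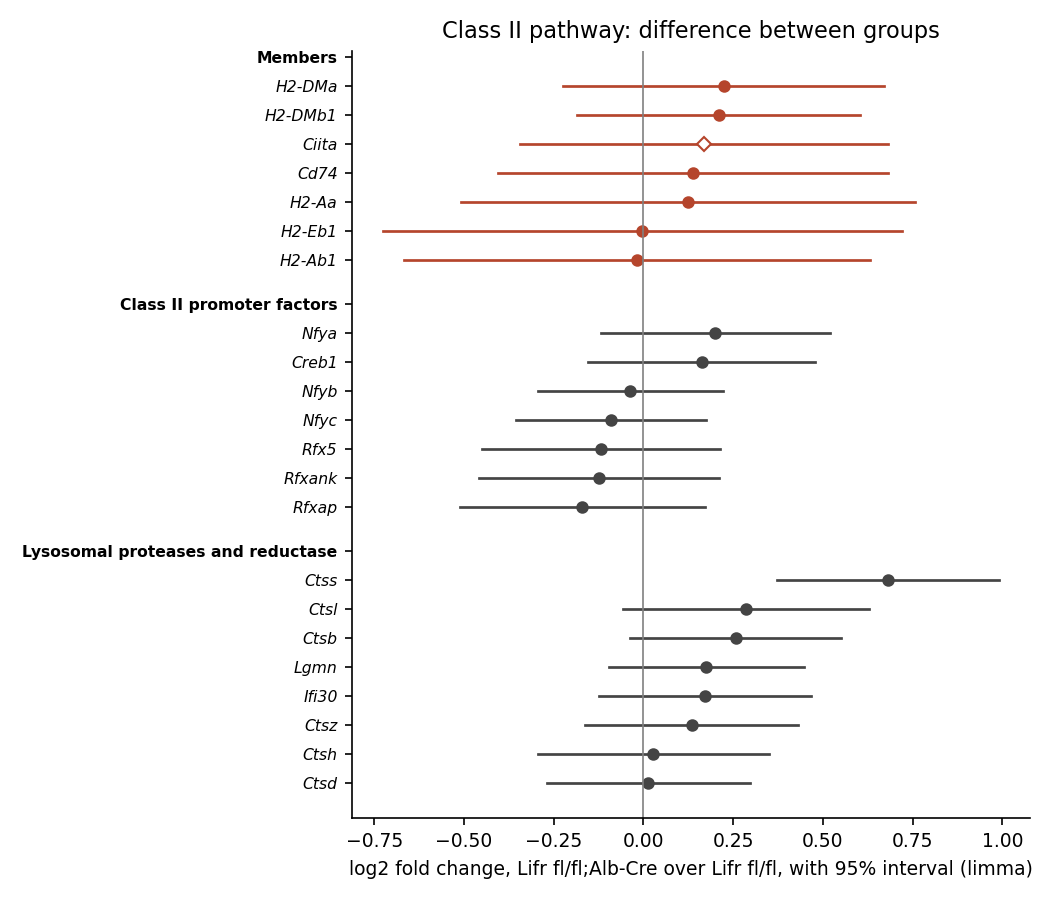
Log2 fold change of Alb-Cre over control livers with the 95% interval from limma, for the 7 class II pathway genes and for the promoter factors and lysosomal enzymes that were tested. The open diamond for *Ciita* is from the fit without a filter, and of the intervals drawn, that of *Ctss* alone stays clear of 0.

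Markers of cells that carry class II stood at different levels. Among 10 B cell markers, the highest mean was 0.973 FPKM, and *Ms4a1*, which encodes CD20, averaged 0.284 FPKM in Alb-Cre livers, against 0.271 FPKM in control livers. Among 10 dendritic cell markers, the highest mean was 1.81 FPKM, for *Naaa*. *Flt3* and *Itgax*, which define dendritic cells, averaged 0.080 and 0.253 FPKM in Alb-Cre livers, against 0.082 and 0.298 FPKM in control livers. Of the B cell list 2 genes were tested, both below 0 (median log2 fold change -0.18). Of the dendritic cell list 4 genes were tested, all above 0 (median 0.09, with *Zbtb46* at 0.001), beside 54.9% of all genes tested. None of these passed in limma, adjusted or not. Over all 10 genes of each list, 4 B cell and 5 dendritic cell markers lay above 0. Genes under the filter were taken here from the fit without it. *Xcr1*, a marker of cross-presenting dendritic cells under the filter, averaged 0.241 FPKM in Alb-Cre livers and 0.175 FPKM in control livers. Its groups were barely apart, with a lowest Alb-Cre value of 0.199 FPKM and a higher control value of 0.195 FPKM. *Siglech* of the same list, also under the filter, was lower without overlap, at 0.145 FPKM in Alb-Cre livers against 0.203 FPKM. In the B cell list, *Pax5* and *Cr2*, both under the filter, were higher in Alb-Cre livers without overlap. For *Pax5* the lowest Alb-Cre value was 0.187 FPKM and the higher control value 0.183 FPKM. Of all genes tested, none of them under the filter, 15.1% were higher and 10.7% lower without overlap. The summed means were 3.66 and 6.47 FPKM in Alb-Cre livers, against 3.78 and 6.11 FPKM in control livers, for B cell and dendritic cell markers in that order.

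Kupffer cell markers were more abundant, and their direction was the same throughout. All 13 lay above 0, beside 54.9% of all genes tested, and their median log2 fold change was 0.50, beside 0.13 for the class II genes. For 10 of the 13 the groups did not overlap, all higher in Alb-Cre livers, beside 15.1% of all genes tested. None of the 13 was past the adjusted threshold in limma. An unadjusted p under 0.05 was found for 9, all higher, beside 6.08% of all genes tested. *Clec4f*, found on Kupffer cells alone, averaged 55.9 ± 5.06 FPKM in Alb-Cre livers (SD, n = 3) and 41.7 ± 0.130 FPKM in control livers (SD, n = 2), a log2 difference of 0.42 at an adjusted p of 0.25 in limma. The summed means of the 13 were 421 FPKM in Alb-Cre livers and 309 FPKM in control livers, and those of the 7 class II genes were 198 FPKM and 177 FPKM in the same order. Whether the class II genes differ in response from Kupffer cell markers was not tested.

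Markers of other cells did not share 1 direction. All 6 general leukocyte markers lay above 0 (median 0.40), 4 with an unadjusted p under 0.05 in limma. Of all genes tested, 54.9% lay above 0, and 6.08% were higher at an unadjusted p under 0.05. *Ptprc*, which encodes CD45, averaged 3.83 ± 0.718 FPKM in Alb-Cre livers (SD, n = 3) and 2.49 ± 0.128 FPKM in control livers (SD, n = 2), with adjusted p = 0.27 from limma. Of 3 monocyte markers tested, 2 had an unadjusted p under 0.05 and none passed the adjusted threshold (median 0.57). Of 8 markers of liver endothelial cells, which also carry class II, 2 lay above 0, the median was -0.09, and none passed in limma, adjusted or not. Of 4 neutrophil markers tested, all lay above 0 (median 0.97), beside 54.9% of all genes tested. For 7 of the 10 neutrophil markers matched, *Retnlg* and *Cxcr2* among them, the groups overlapped. *S100a9* of this list was at 3.42 ± 0.685 FPKM in Alb-Cre livers (SD, n = 3), against 1.08 ± 0.318 FPKM in control livers (SD, n = 2), with adjusted p = 0.018 from limma. It was the 1 gene past the adjusted threshold in all the pathway and marker lists, and none passed without a filter or where a control value was left out. With a pseudocount of 0.01 FPKM 2 neutrophil markers passed, and 1 lysosomal gene passed where the middle Alb-Cre value of the 7 genes, and a random Alb-Cre value of each other gene, was left out. Of 3 T and NK cell, 7 stellate cell, 4 cholangiocyte and 7 hepatocyte markers tested, none was past the adjusted threshold in limma, and *Hgf* in the stellate cell list alone had an unadjusted p under 0.05. A sum per mouse cannot be formed for these lists, and the part of any cell type in the level of the class II genes was not tested.

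**Figure D4:**
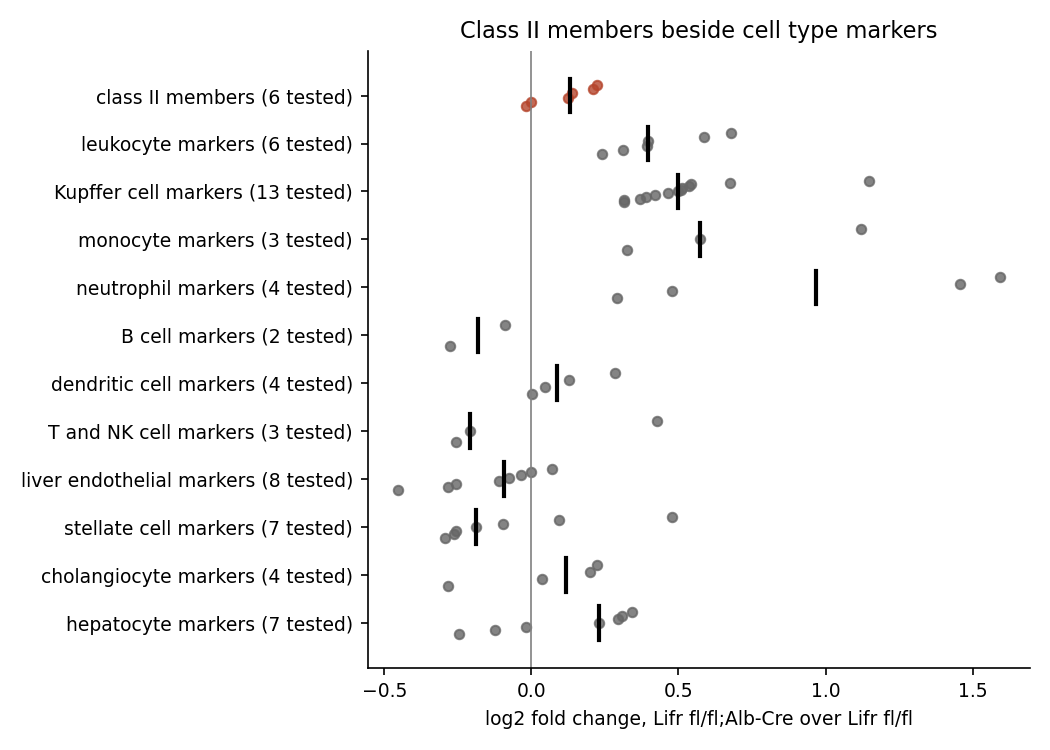
Log2 fold change of Alb-Cre over control livers for each gene tested, by list, with a bar at the median of each list. The 6 class II genes lie between -0.02 and 0.22, and the 13 Kupffer cell markers between 0.31 and 1.15. The upper end is *Marco*, whose groups overlap, at 2.53, 4.56 and 16.3 FPKM in Alb-Cre livers against 2.32 and 2.79 FPKM. The next highest Kupffer cell marker is *Cd163* at 0.67.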

How the data were processed

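Liver RNA of 3 Lifr fl/fl;Alb-Cre and 2 Lifr fl/fl mice, grouped by the genotype in the labels, was sequenced. Per the paper's methods, the authors assessed read quality (FastQC 0.11.5), aligned read pairs to mm10 (TopHat2 2.1.1), retained unique alignments (SAMtools 1.5) and quantified RefSeq genes as FPKM (Cufflinks 2.2.1). The deposited FPKM of each gene were used as they stand. Columns with the authors' own comparison by Cuffdiff (fold, p-value, call) were not used. Depth per library is unknown, so precision rests on the spread between mice.

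Genes whose mean reached 0.5 FPKM were tested on log2(FPKM + 0.1) with limma 3.58.1 in R 4.3.3 (lmFit, eBayes with a trend), two-sided, with Benjamini-Hochberg adjustment. The procedure was tested on simulated data with planted differences larger than those of the 7 genes. That test does not show how often differences of their size would be found. Coordinates and promoters are from RefSeq on GRCm38.p6, whose chromosomes are those of mm10, and exon overlaps are from GENCODE M21. Outside the 7 genes, 140 of 145 list entries matched a row. In 26 rows the symbol stands as a date, and *March1* and *March8*, class II ubiquitin ligases, were not matched. The genes and lists were chosen with earlier results of these data known. The rule names the 7 genes, *Lifr* and, from each list, genes past the threshold and up to 4 with the highest mean. Not all of these are reported here, and others were named after their values were seen. No likeness of pattern between genes was computed, because the columns do not stand for mice. Alternatives were other pseudocounts and filters, eBayes without a trend, removal of the median difference between groups, and leaving out values in turn.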

Additional observations from a re-analysis of the deposited data

How the results depend on the processing

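No class II gene was past the adjusted threshold of limma under any setting, in 11 alternatives for each of the 6 genes tested and 9 for *Ciita*. The sign of *H2-Eb1* turned with a pseudocount of 1 FPKM (0.0034). When each value was left out in turn, log2 fold changes ran from -0.13 to 0.48 for *H2-Aa*, -0.29 to 0.32 for *H2-Ab1*, -0.27 to 0.40 for *H2-Eb1*, -0.023 to 0.47 for *H2-DMa*, 0.10 to 0.35 for *H2-DMb1*, -0.029 to 0.42 for *Cd74* and 0.04 to 0.30 for *Ciita*, so 5 of the 7 ranges span 0. The smallest adjusted p among these was 0.27, for *H2-Aa*. Of all genes, 42 were higher and 24 lower, beside 11 and 5 with no filter, 21 and 11 without a trend, and 6 to 77 and 9 to 40 when a value was left out, where genes other than the 7 and *Lifr* lost a value at random. The log2 fold change of *Lifr* was -1.71 with no filter (adjusted p = 0.062 from limma), and -1.89 to -1.52 with a value left out. No paired analysis was possible because the columns of the table do not stand for mice. With 3 mice against 2, the 95% intervals were wide, from ratios of 0.605 to 1.65 for *H2-Eb1* to ratios of 0.880 to 1.52 for *H2-DMb1*.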

Other observations

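The partners of class II on the side of the T cell and the costimulatory ligands of presenting cells were at low levels. *Cd86*, a ligand of CD28 on presenting cells, was at 1.31, 1.89 and 2.15 FPKM in Lifr fl/fl;Alb-Cre livers, against 1.16 and 1.24 FPKM in Lifr fl/fl livers, without overlap. Its log2 fold change was 0.51 (standard error 0.22, unadjusted p = 0.045, adjusted p = 0.51 from limma). Of all genes tested, 15.1% were higher without overlap and 6.08% were higher at an unadjusted p under 0.05 in limma. *Cd80*, *Cd40* and *Icosl* were under the filter, with means of 0.270, 0.514 and 0.440 FPKM in Lifr fl/fl;Alb-Cre livers, against 0.223, 0.338 and 0.385 FPKM in Lifr fl/fl livers. The groups overlapped for each of them. *Cd4* and *Lag3* of the T and NK cell list encode T cell receptors for class II molecules. They averaged 0.604 and 0.529 FPKM in Lifr fl/fl;Alb-Cre livers, against 0.698 and 0.638 FPKM in Lifr fl/fl livers. Neither passed in limma (adjusted p = 0.84 and 0.81). These 2 do not stand for their list, where 8 of 11 matched genes had log2 fold changes above 0. *Cd4*, *Lag3* and *Cd8a* were below 0. For *Cd3d* and *Klrb1c*, both under the filter, each Alb-Cre value lay above both control values. Their log2 fold changes were 0.81 and 0.77 in limma without a filter (unadjusted p = 0.042 and 0.0060, adjusted p = 0.63 and 0.38).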
